A study of Sus scrofa with 6 samples.

Results

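The miR-181 family was followed in left atrial (LA) tissue of 3 sham and 3 paced pigs, measured with 1 microarray per animal. Its members on the array were the 5 probes, out of 322 for pig mature miRNAs, that carry the name miR-181a, miR-181b, miR-181c, miR-181d-3p or miR-181d-5p. They were chosen by name, with earlier results of these data known. The animals were Large White pigs, given as 3 months old in the study's methods and as neonatal piglets in the sample labels. Paced animals received bursts of rapid right atrial stimulation through a catheter, which gave short self-ending episodes of atrial fibrillation (AF), and sham animals were not paced. Esmolol, a beta blocker, was given before pacing, and the methods do not say whether sham animals received it. Tissue was taken on the next day, when both groups had a normal rhythm. All RNA came from whole LA tissue, in which fewer cells of a type and less RNA per cell cannot be told apart. The comparison asks whether these miRNAs differed in the LA between paced and sham animals on the day after pacing.

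A miRNA guides the silencing complex to messenger RNAs that pair with its seed, the short stretch near its 5′ end, and their translation and stability then fall. miR-181a is best known from lymphocytes, where it sets the sensitivity of the T cell receptor by lowering phosphatases. miR-181b is known to dampen NF-kB signalling in vascular endothelium, and miR-181c is known in heart muscle for acting on a mitochondrial transcript for a cytochrome c oxidase subunit. Each hairpin precursor can give a 5p and a 3p strand, of which 1 is usually kept and the other degraded.

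The mature sequences are shown because the members differ by so few bases that their probes have to tell near-identical targets apart. They are the target sequences listed with the probes in the array files, written 5′ to 3′, with bases 2 to 8, the seed, in capitals.
miR-181a: aACAUUCAacgcugucggugaguu
miR-181b: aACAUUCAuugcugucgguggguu
miR-181c: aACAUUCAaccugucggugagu
miR-181d-5p: aACAUUCAuuguugucgguggguu
miR-181d-3p: cCCACCGAgggaugaaugucac

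The seed ACAUUCA was shared by miR-181a, miR-181b, miR-181c and miR-181d-5p, and these 4 were the only ones among the 322 probes that carried it. miR-181d-3p, the opposite strand of the miR-181d hairpin, had the seed CCACCGA, which no other probe on the array had. Counting positions from 1 at the 5′ end, miR-181b differed from miR-181a by 3 substitutions, A9U, C10U and A21G. miR-181d-5p differed from miR-181b by the single substitution C12U, and from miR-181a by 4, A9U, C10U, C12U and A21G. miR-181c, at 22 bases against 24 for the other 5p strands, was 2 edits (single-base changes, insertions or deletions) from miR-181a, 5 from miR-181b and 6 from miR-181d-5p. The nearest of the 317 probes outside the family was 8 or 9 edits away from each member. Cross-hybridization between the members was not tested, so the values of miR-181b and miR-181d-5p in particular are uncertain to the extent that their probes share target.

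In the RefSeq gene table of the pig assembly Sscrofa11.1, which was used for names and neighbours only, the family came from 6 hairpin genes that lie in adjacent pairs. MIR181A-2 and MIR181B-2 lie beside each other inside the span of NR6A1, a gene for a nuclear receptor. MIR181A-1 and MIR181B-1 lie beside each other inside the span of an unnamed locus that follows PTPRC, the gene for the leukocyte phosphatase CD45. MIR181D and MIR181C lie beside each other, and the next gene is MIR23A. The mature miR-181a and miR-181b can each come from either of their genes, and the array does not tell these apart.

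The depth of an array measurement is its signal over background, which was read from the 786 empty spots of each array. Their median was 214, 64.7 and 117 scanner units in the sham arrays and 399, 242.5 and 261 units in the paced arrays, so every paced array had a higher background than every sham array. Each probe has 9 repeat spots, and it is called well above background on an array if their median lies over 3 SD of the empty spots above the empty-spot median. Between 104 and 175 probes per array met this, and 104 met it on all 6 arrays. Paced replicate 1 stood apart with the highest background and the fewest such probes, and results that rest on it are given with and without it. The limma p-values rest on the spread between these animals, with the variance of each probe drawn toward that of all probes. With 1 array per animal, this spread includes that between arrays. The number of animals limits the precision.

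The 5p strands of the family were detected in the LA and the 3p strand of miR-181d was not. miR-181a had the brightest spots of its family, with medians of 8772, 5256 and 5045 scanner units in sham and 4246, 5423 and 4373 units in paced animals, which is between 10.6 and 81.3 times the empty-spot median. miR-181b lay between 4.80 and 29.1 times and miR-181c between 1.74 and 8.67 times the empty-spot median of the array. These 3 probes were well above background on all 6 arrays. How bright a probe is depends also on how well it binds, so no order of abundance among the members is read from these values.

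miR-181d-5p was well above background on 5 of 6 arrays. Its scanner medians were 884, 367 and 431 units in sham and 528, 919 and 887 units in paced animals. The array that missed was paced replicate 1, where its signal was 2.58 SD above the empty spots. Measured against the 15 nearest empty spots, it was above background on all 6. miR-181d-3p gave 171, 63.9 and 116 units in sham and 324, 252 and 233 units in paced animals, between 0.796 and 1.04 times the empty-spot median. It was above background on no array by either measure, so its level has only an upper bound, and neither a fold nor a difference in level is given.

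**Figure D1:**
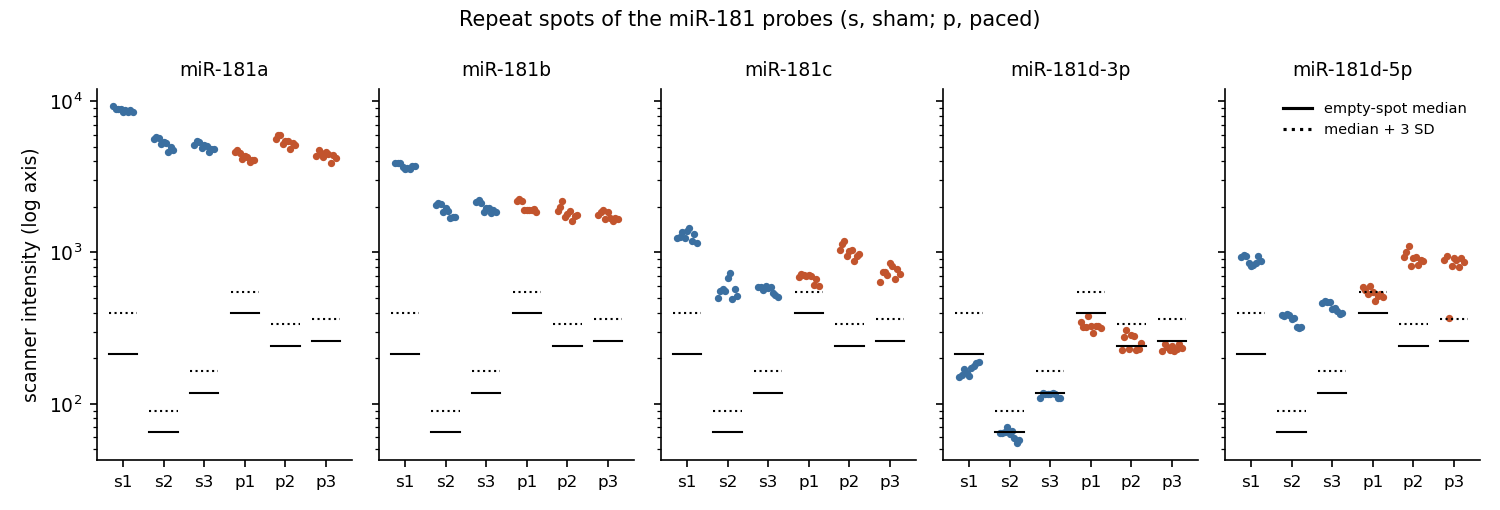
Scanner intensity (log axis) of the 9 repeat spots of each miR-181 probe on the 3 sham (s1 to s3, blue) and 3 paced (p1 to p3, orange) arrays, with the empty-spot median of the array as a solid line and 3 SD above it as a dotted line. miR-181a, miR-181b and miR-181c lie above the dotted line on all 6 arrays, miR-181d-5p lies at it in paced replicate 1, and miR-181d-3p lies at the empty spots, which are higher in every paced array.

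The repeat spots of a probe agreed closely, with a coefficient of variation between 3.04% and 14.1% on all arrays for every member except in 1 case. For miR-181d-5p in paced replicate 3 it was 21.6%, because 1 spot read 367 units while the other 8 read between 798 and 941. The median of the spots there, 887 units, is little moved by that spot. The normalized values used below are means over the repeat spots, so that spot enters them. With the median of the repeat spots, the paced minus sham log2 difference of miR-181d-5p was 0.25, against 0.21 with the mean.

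After background correction and normalization, described further on, no member of the family differed between paced and sham animals beyond the spread between animals. miR-181a and miR-181b had the lower mean in paced animals and miR-181d-5p the higher one, with log2 differences of -0.21, -0.24 and 0.21. Of the 5 members, 0 reached an unadjusted limma p of 0.05, the threshold of the study's methods, where 34 of all 322 probes (10.6%) did, 11 of them higher and 23 lower in paced animals. After Benjamini-Hochberg adjustment over all probes, 0 members and 0 probes (0%) passed 0.05, and the lowest adjusted p on the array was 0.148. With the methods' t-test, the same values gave 39 probes unadjusted and 0 adjusted. Between paced and sham animals the values did not overlap for 1 of the 5 members, miR-181d-3p, against 56 of 322 probes (17.4%).

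The normalized log2 value of miR-181a, the lymphocyte and T cell regulator, was 12.63, 12.48 and 12.33 in sham replicates 1, 2 and 3 and 12.44, 12.23 and 12.16 in paced replicates 1, 2 and 3. Paced replicates 2 and 3 lay below all sham animals, and paced replicate 1 lay between sham replicates 2 and 3. The means were 12.48 ± 0.15 (SD, n = 3) and 12.28 ± 0.15 (SD, n = 3). The difference of -0.21 (SE 0.11, 95% interval -0.47 to 0.06) corresponds to 0.867 times the sham level, and its adjusted p in limma was 0.498.

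For miR-181b, known from endothelial inflammation, the normalized log2 values were 11.20, 11.11 and 11.10 in sham and 11.25, 10.69 and 10.74 in paced animals. The sham animals lay close together, paced replicates 2 and 3 lay below all of them, and paced replicate 1 was the highest of the 6. The means were 11.13 ± 0.055 (SD, n = 3) and 10.89 ± 0.31 (SD, n = 3). The difference was -0.24 (SE 0.15, 95% interval -0.60 to 0.12, limma, adjusted p = 0.612), or 0.848 times the sham level.

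miR-181c, the member known from heart mitochondria, had normalized log2 values of 9.71, 9.50 and 9.28 in sham and 9.39, 9.58 and 9.29 in paced animals. All paced values fell within the range of the sham values. The means of 9.50 ± 0.22 (SD, n = 3) and 9.42 ± 0.15 (SD, n = 3) differed by -0.07 (SE 0.13, 95% interval -0.39 to 0.24, limma, adjusted p = 0.864).

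miR-181d-5p, the near copy of miR-181b, had normalized log2 values of 9.20, 8.82 and 8.87 in sham and 8.76, 9.37 and 9.40 in paced animals. Here paced replicates 2 and 3 were the highest of the 6 and paced replicate 1 the lowest, the reverse of their order in miR-181b. The means were 8.96 ± 0.21 (SD, n = 3) and 9.18 ± 0.36 (SD, n = 3), a difference of 0.21 (SE 0.20, 95% interval -0.25 to 0.68, limma, adjusted p = 0.738).

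The measured log2 values of miR-181d-3p were 6.69, 6.70 and 6.68 in sham and 6.93, 6.71 and 6.76 in paced animals. Each paced value was above each sham value, and paced replicate 1, the array with the highest background, was the highest. Its adjusted p in limma was 0.653. The empty-spot signal was also higher in every paced array, although the sham values did not follow it among themselves, and its part in the miR-181d-3p values was not tested.

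**Figure D2:**
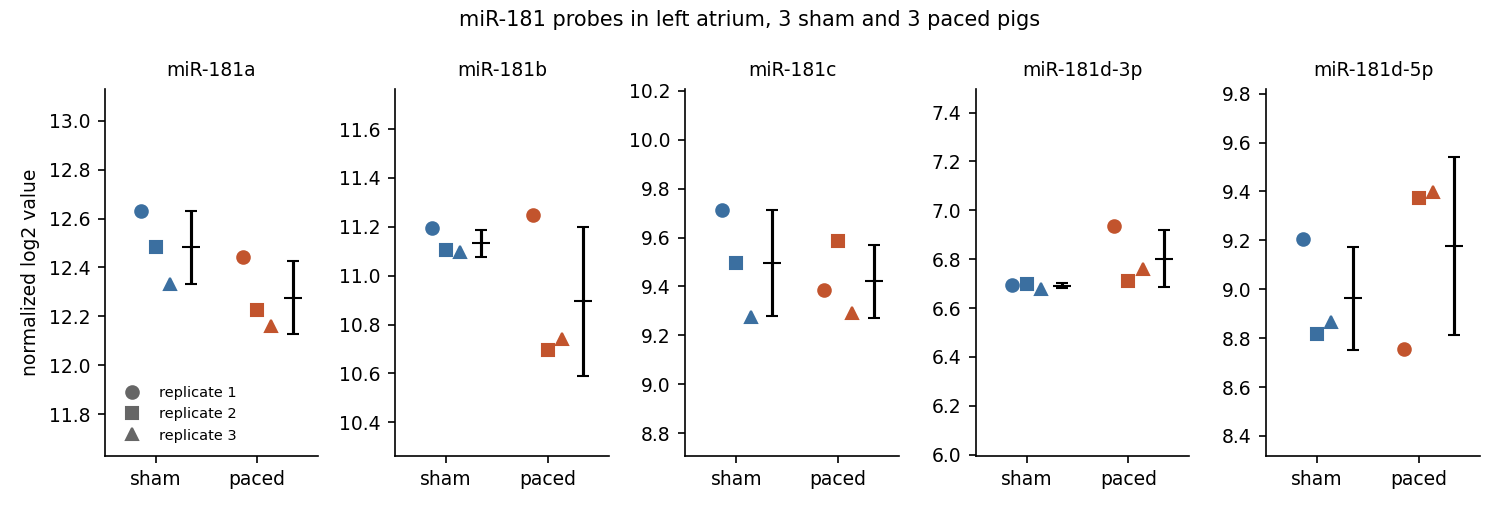
Normalized log2 value of each miR-181 probe in the 3 sham (blue) and 3 paced (orange) animals, with the replicate number as the symbol and the group mean ± SD beside the points; each panel spans the same number of log2 units but starts at its own level. The groups overlap for miR-181a, miR-181b, miR-181c and miR-181d-5p, and paced replicate 1 lies away from the other paced animals for miR-181b and miR-181d-5p.

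The values that the authors had processed, on a linear intensity scale, overlapped between the groups for all 5 members. For miR-181a they were 5989, 5562 and 4886 in sham and 5361, 4760 and 4519 in paced animals. For miR-181b they were 2363, 1981 and 1946 in sham and 2333, 1439 and 1589 in paced animals. Both series of paced values overlapped the sham values, paced replicate 1 being the brightest paced animal in each. The processed values of miR-181c were 681, 586 and 487 in sham and 498, 687 and 518 in paced animals. Those of miR-181d-5p were 441, 344 and 344 in sham and 294, 609 and 668 in paced animals, again with paced replicate 1 below and the other paced animals above all sham animals. miR-181d-3p stayed between 1.52 and 3.79 in all animals, with its groups overlapping here, unlike in the normalized scanner values. How these values were corrected for background and normalized is not given in the sources used here.

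How far apart the groups lay depended on paced replicate 1. Without it, the log2 difference of miR-181b was -0.42 (SE 0.07, 95% interval -0.59 to -0.25) and passed the adjusted threshold in limma (adjusted p = 0.0316), with 9 of the 322 probes (2.8%). With any other animal left out, or with all 6 arrays, miR-181b did not pass, and over the 6 omissions its adjusted p reached 0.908. At the unadjusted threshold 3 members were called without paced replicate 1, among 69 of 322 probes (21.4%). These were miR-181a at -0.28 (SE 0.10, limma, adjusted p = 0.158), miR-181b, and miR-181d-5p at 0.43 (SE 0.13, limma, adjusted p = 0.107). The remaining paced animals did not overlap the sham animals for 4 of the 5 members, these 3 and miR-181d-3p, where the same held for 128 of all 322 probes (39.8%). miR-181c stayed at -0.06 (SE 0.15). Leaving out any other animal gave 0 members at the unadjusted threshold.

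**Figure D3:**
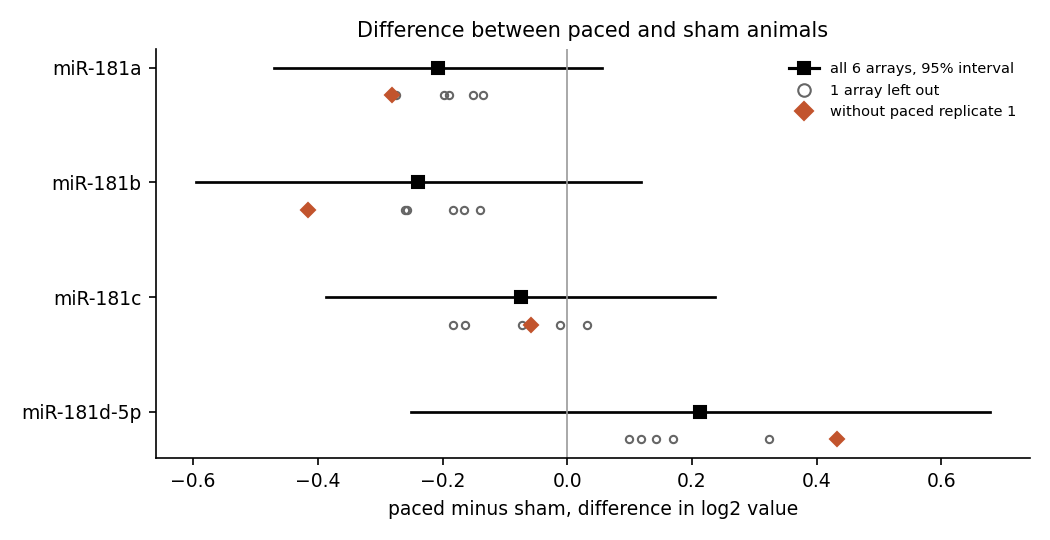
Log2 difference between paced and sham animals for the 4 miR-181 probes of the 5p arm, with its 95% interval over all 6 arrays (black), with each array left out in turn (open circles) and without paced replicate 1 (orange). All 4 intervals contain 0, and leaving out paced replicate 1 moves miR-181b to -0.42 and miR-181d-5p to 0.43.

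Ratios within an array set the members against each other in the same animal. They were taken for the 6 pairs of 5p strands as the difference of their normalized log2 values, and only their change between the groups is read. Quantile normalization does not cancel in them, so their changes without normalization between arrays are given as well. The log2 ratio of miR-181b to miR-181d-5p, which differ in 1 base, was 1.99, 2.29 and 2.23 in sham and 2.49, 1.32 and 1.34 in paced animals. It was thus lower in paced replicates 2 and 3 than in any sham animal and highest in paced replicate 1. In paced replicate 1, miR-181d-5p was not well above background (2.58 SD above the empty spots), so each ratio to it there rests on a dim signal. The means of 2.17 ± 0.16 and 1.72 ± 0.67 (SD, n = 3 each) differed by -0.45 (two-sided exact permutation test, p = 0.4, adjusted over the 6 pairs 0.72), and by -0.67 without normalization (exact permutation test, p = 0.3). The design of 3 against 3 animals cannot give a p below 0.1.

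The log2 ratio of miR-181a to miR-181d-5p was 3.43, 3.67 and 3.47 in sham and 3.69, 2.85 and 2.76 in paced animals, a change of -0.42 (exact permutation test, p = 0.4, adjusted 0.72). That of miR-181c to miR-181d-5p, whose genes are neighbours, was 0.51, 0.68 and 0.41 in sham and 0.63, 0.21 and -0.11 in paced animals, a change of -0.29 (exact permutation test, p = 0.3, adjusted 0.72). In all 3 ratios to miR-181d-5p, paced replicates 2 and 3 lay below the sham animals and paced replicate 1, where miR-181d-5p was dim, did not. The ratio of miR-181a to miR-181b, whose genes lie in pairs, was 1.44, 1.38 and 1.24 in sham and 1.20, 1.53 and 1.42 in paced animals, a change of 0.03 (exact permutation test, p = 0.8, adjusted 0.8). The ratios of miR-181a and miR-181b to miR-181c changed by -0.13 and -0.16, with exact permutation p values of 0.5 and 0.6, and without normalization by -0.26 and -0.31, with exact permutation p values of 0.2 and 0.5. Without normalization the ratio of miR-181a to miR-181d-5p changed by -0.62, that of miR-181c to miR-181d-5p by -0.36 and that of miR-181a to miR-181b by 0.05. The groups overlapped for all 6 pairs. Without paced replicate 1 the ratios to miR-181d-5p changed by -0.71 for miR-181a, -0.85 for miR-181b and -0.49 for miR-181c.

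**Figure D4:**
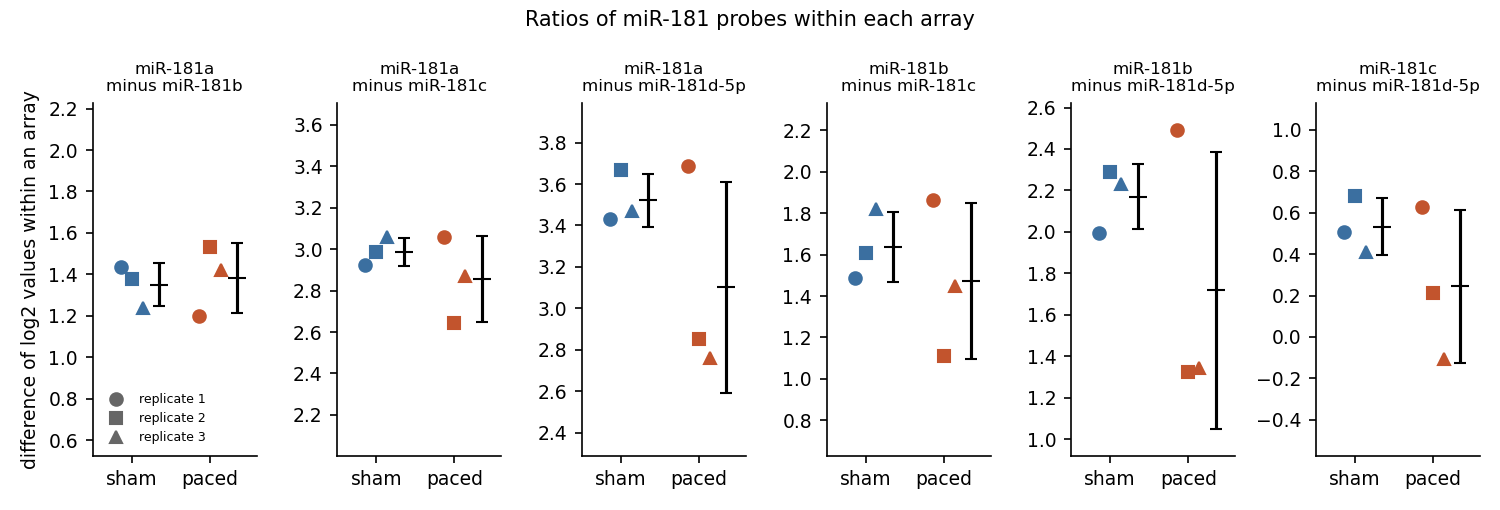
Difference of the normalized log2 values of the members of each pair of 5p strands within each array, for sham (blue) and paced (orange) animals, with the replicate number as the symbol and the group mean ± SD beside the points. Paced replicates 2 and 3 lie below the sham animals in the 3 pairs with miR-181d-5p, paced replicate 1 lies at or above them in the pairs of miR-181a and miR-181b with miR-181d-5p, and the groups overlap in all 6 pairs. In paced replicate 1, miR-181d-5p was not well above background.

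Across the 6 animals, miR-181a followed miR-181b most closely within the family. As a description, profiles were compared by the root mean square difference of log2 values after each probe was centred on its own mean. This distance was 0.116 between miR-181a and miR-181b, 0.143 between miR-181a and miR-181c and 0.252 between miR-181b and miR-181c. miR-181d-5p, which was not well above background in paced replicate 1, lay farther off, at 0.369 from miR-181a, 0.456 from miR-181b and 0.269 from miR-181c. The median over the 5356 pairs of probes well above background on all arrays was 0.207. All these points share the same 6 arrays and their normalization.

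**Figure D5:**
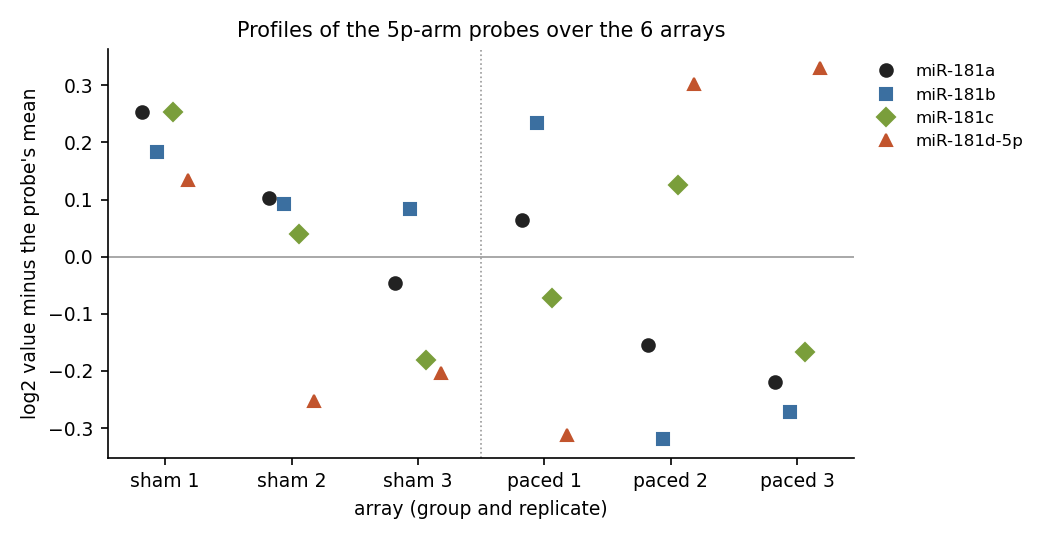
Normalized log2 value minus the probe's own mean over the 6 arrays, for the 4 miR-181 probes of the 5p arm, with sham animals left and paced animals right of the dotted line. The 4 probes lie above their means in sham replicate 1, while miR-181b and miR-181d-5p lie on opposite sides in all 3 paced animals.

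Of the 101 other probes well above background on all arrays, those closest to the mean profile of miR-181a, miR-181b and miR-181c were miR-378 at a distance of 0.0422, miR-16 at 0.0456 and miR-130a at 0.0469. Paced minus sham, miR-378 differed by -0.15 (SE 0.10), miR-16 by -0.09 (SE 0.11) and miR-130a by -0.14 (SE 0.12) in log2 value. The probe nearest to miR-181d-5p was miR-186 at 0.0887, which differed by 0.25 (SE 0.19, limma, adjusted p = 0.661). The nearest to miR-181a was miR-378 at 0.0433, closer than miR-181b at 0.116. The nearest to miR-181b was miR-7134-3p at 0.0557, and to miR-181c it was miR-29a at 0.0797. Pooled over both groups, the SD between animals of a group was 0.149 for miR-181a, 0.220 for miR-181b and 0.186 for miR-181c, at percentiles 45.7, 69.7 and 60.1 of the 104 probes, whose median SD was 0.162.

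The miR-23a, miR-27a and miR-24 group, listed as neighbours of the miR-181c and miR-181d hairpins, had 5 probes on the array. Their median log2 difference was 0.09, beside 0.00 over all 322 probes. miR-23a differed by 0.09 (SE 0.09), miR-27a by 0.19 (SE 0.17) and miR-24-3p by 0.12 (SE 0.12), and in all 3 the groups overlapped. In the unadjusted test 1 of the 5 passed, the low miR-24-2-5p, at -0.39 (SE 0.09, limma, adjusted p = 0.148). Over all 322 probes, 34 (10.6%) passed that test. The gene of miR-24-2-5p, MIR24-2, lies on another chromosome in the pig table, so it is not a neighbour there. The remaining probe, miR-24-1-5p, was above background on no array. The median and the count of the 5 thus cover more than the neighbouring hairpins.

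Other miRNAs were counted by the settings in which the family is known, from lists chosen with earlier results of these data known. Among 11 probes of miRNAs of lymphocytes and inflammation, 0 rose and 1 fell at the unadjusted threshold, miR-17-3p from the strand opposite miR-17-5p, at -0.27 (SE 0.09, limma, adjusted p = 0.309), and the median difference was 0.03. Among 9 probes of vascular endothelial miRNAs, 1 was higher, miR-126-5p at 0.37 (SE 0.13, limma, adjusted p = 0.360), which was above background on no array, while miR-126-3p differed by -0.02. Their median was 0.04. Among 7 probes of miRNAs described at heart mitochondria, 0 passed and the median was 0.00. After adjustment 0 probes of these lists passed.

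Heart muscle miRNAs were bright in every animal, the tissue being labelled as atrium, and 5 of their 7 probes were well above background on all 6 arrays. The 7 probes of cardiomyocyte miRNAs had a summed level, as log2 of the sum of their normalized values, between 15.90 and 15.96 in sham and between 15.85 and 16.09 in paced animals. At the unadjusted threshold 0 of them passed, and the marker counts here stand beside 34 of all 322 probes (10.6%). Quantile normalization gives spots of the same rank the same value on every array. The brightest of the 7, miR-133a-3p and miR-133b, differed by only 0.0041 and -0.0041. The sum could move little through them, which limits what it says of heart muscle content. Of 8 leukocyte probes, 2 were well above background on all 6 arrays, miR-150 and miR-146a-5p. Another 4 were above it on no array, among them both arms of miR-142, the marker shared by all blood leukocytes. At the unadjusted threshold 0 of the 8 passed. Their summed level was between 11.00 and 11.10 in sham and between 10.85 and 11.37 in paced animals. Of 3 erythroid probes 1 passed, miR-486, at -0.70 (SE 0.15, limma, adjusted p = 0.148). Their summed level was 13.60 to 14.08 in sham and 13.04 to 13.61 in paced animals. This sum rests mostly on the far brighter miR-451, which differed by -0.37 (SE 0.20, limma, adjusted p = 0.507) with overlapping groups. Of 4 smooth muscle probes 1 passed, miR-143-3p, at -0.32 (SE 0.10, limma, adjusted p = 0.309), with a summed level of 14.26 to 14.51 in sham and 14.09 to 14.25 in paced animals. The endothelial marker miR-126 had both arms on the array, with a summed level of 13.06 to 13.31 in sham and 13.02 to 13.23 in paced animals. Of 5 fibroblast probes 0 passed, with 14.51 to 14.64 in sham and 14.40 to 14.70 in paced animals. The part of blood, vessel or other cells in the miR-181 values was not tested.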

How the data were processed

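Small RNA in total RNA of the LA was extended with a poly(A) tail, stained with Cy3 and hybridized to a 1-colour pig miRNA array by a service provider, without pooling of animals. The authors deposited the scanner output of each array, the median intensity of every spot on a linear scale, with neither background correction nor normalization, for 2898 spots of 322 probes with 9 repeats each and for 1070 control spots. They also deposited 1 processed intensity per probe and array, whose background correction and normalization are not given in the sources used here. These followed the scanner values with Spearman's rho across probes of 0.988 to 0.996 and were used as an alternative.

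Scanner values of all spots were corrected with normexp (offset 50, limma 3.58.1, R 4.3.3). The offset compresses differences of dim probes. Control spots were then left out, and values were quantile-normalized, transformed to log2 and averaged over repeat spots, with no filter on dim probes. Groups came from the labels. limma was fitted to all probes, with Benjamini-Hochberg adjustment, and ratios were tested by exact permutation of the animals (20 splits). The miR-181 probes, the lists and the markers were chosen with earlier results of these data known. All miR-181 probes are named, then from the lists and markers those at an unadjusted p of 0.05 or those needed to describe the tissue or the neighbouring genes, and the 3 probes with the profile nearest to that of the family. miR-7134-3p, miR-29a and miR-186 are named as nearest to single members, chosen after their values were seen. The fit was run on 20 simulated sets with 30 probes shifted by 1 log2 unit at an SD of 0.15, and 100% of the shifts were recovered. That shift is larger than the differences of the members, so the run does not tell how well differences of their size are found. Python 3.11.15 and matplotlib 3.10.9 drew the figures.

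The alternatives were plain subtraction with a floor of 32, no background correction, an offset of 10, the 15 nearest empty spots as background, cyclic loess, scaling to the median of detected probes, no normalization, the processed values, the median of the repeat spots, a filter on dim probes, the methods' t-test on the same values and on the processed values, a replicate block, limma with a trend and robust prior, and each animal left out. Each changed 1 choice, except the methods' t-test on the processed values. It changed the values and the test, and its difference is the log2 ratio of the linear group means. No slide or scan batch is named in the files. Genome coordinates were not used here.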

Additional observations from a re-analysis of the deposited data

How the results depend on the processing

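Under the alternatives tried, the differences of miR-181a, miR-181b and miR-181d-5p kept their sign, and of these 3 only miR-181b without paced replicate 1 came to pass the adjusted threshold. With 1 animal left out the log2 differences ranged from -0.28 to -0.14 for miR-181a, from -0.42 to -0.14 for miR-181b, from -0.18 to 0.032 for miR-181c and from 0.10 to 0.43 for miR-181d-5p. Over the settings that kept all animals, the range was -0.43 to -0.13 for miR-181a and -0.48 to -0.22 for miR-181b, with the largest size of each without normalization and the smallest with cyclic loess. For miR-181d-5p it was 0.19 (without normalization) to 0.48 (the methods' t-test on the processed values). That 0.48 is the log2 ratio of the linear group means, not a difference of mean log2 values. miR-181d-5p was at 0.40 on the processed values in limma and at 0.35 with scaling to the median of detected probes. miR-181c changed sign without sham replicate 1 (0.032) and with cyclic loess (0.0041). The measured values of miR-181d-3p are those of a probe at background and give no difference in level. They differed by 0.65 (limma, adjusted p = 0.00303) when arrays were scaled to the median of detected probes, which moved the median of all probes by 0.44. With this scaling all members had the same SE, 0.19, so this p does not measure the spread of miR-181d-3p itself. The miR-181d-3p difference changed sign on the processed values, at -0.051 in limma and, as log2 ratio of the linear group means, at -0.079 with the methods' t-test. The cause of these changes was not tested. With the same scaling 181 probes passed unadjusted (176 higher, 5 lower) and 171 adjusted. No normalization gave 15 (15 higher, 0 lower) with the median moved by 0.27, plain subtraction 20 (8 higher, 12 lower), and a test of only the 126 probes detected throughout at least 1 group gave 5. With an animal left out the unadjusted count ranged from 18 (without paced replicate 3) through 20 (without sham replicate 2) to 69 (without paced replicate 1), and the adjusted count from 0 to 9, with 1 without paced replicate 2. The change of the log2 ratio of miR-181a to miR-181b ranged from -0.050 (without paced replicate 2) to 0.13 and was -0.019 without sham replicate 3, and that of miR-181b to miR-181c from -0.36 to 0.024 (without paced replicate 2). Against the nearest empty spots 4 members in place of 3 were above background on all arrays. The replicate numbers are not stated to pair the animals. Same-numbered animals correlated at 0.17, -0.04 and 0.14 in their deviations from the group means. Only sham replicate 1 correlated best with its own number. So few correlations cannot decide whether the numbers pair the animals. With the replicate number as a block, 33 probes passed unadjusted, of the members miR-181a alone, and 0 adjusted, and the adjusted p of miR-181a in limma was 0.377. Dim probes were limited most in paced replicate 1, with 104 probes above background, and next in sham replicate 1, with 126 and the largest SD of the empty spots.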
